A study of Mus musculus with 2 samples.

Results

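Endothelial cells line the blood and lymph vessels, and those of a mouse prostate tumour model are described here in 2 single-cell RNA libraries, 1 for each genotype. A cell was counted as endothelial when it had a unique molecular identifier (UMI, a tag that counts one captured mRNA molecule) for at least 3 of the 6 endothelial genes Pecam1, Cdh5, Kdr, Emcn, Egfl7 and Flt1, none for the leukocyte gene Ptprc, and fewer than 20 UMIs of the fibroblast genes Col1a1, Col1a2, Col3a1 and Dcn per 10000 UMIs of the cell. Cells also had more than 200 and fewer than 7000 genes, less than 15% mitochondrial UMIs and at least 1000 UMIs. By this rule 466 of 19116 kept cells were endothelial, 217 of 9854 in the DoubleTg library (2.20%, exact binomial 95% interval 1.92 to 2.51%) and 249 of 9262 in the TripleTg library (2.69%, 2.37 to 3.04%). Without the epithelial-rich cells described below the shares were 1.96% and 2.09%, and without all cells holding an Epcam or Cdh1 UMI they were 1.06% and 0.81%, so the order of the libraries depends on such cells. Such shares depend also on the tissue taken and on how it was dissociated, and the intervals here and below cover counting error only.

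The DoubleTg mice carried hHGFtg, a human HGF transgene expressed throughout the body, and H11 hMET/+, a human MET transgene kept silent by a lox-flanked stop until PB-Cre4, a Cre recombinase under the probasin promoter of prostate epithelium, removes it. The TripleTg mice carried the same 3 alleles and also Ctnnb1 L(Ex3)/+, in which the same Cre removes exon 3 of 1 copy of the β-catenin gene and leaves a stabilised protein. The tumours were labelled prostatic adenocarcinoma (DoubleTg) and prostatic carcinoma (TripleTg), and no age of the mice is given here. Both genotypes therefore share the HGF and MET transgenes, the Cre targets epithelium and not endothelium, and there was no wild-type prostate to set beside them. With 1 library for each genotype no difference between them has a replicate check, so no test was run, and genotype, animal, dissociation and library cannot be told apart.

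New vessels grow by sprouting, in which a tip cell leads and the stalk cells behind it form the tube. VEGF is sensed through the receptor kinases encoded by Kdr and Flt1, angiopoietin-2 (Angpt2) loosens vessels through the Tie2 receptor (Tek), and Notch signalling keeps the neighbours of a tip cell from becoming tip cells themselves. Arteries, capillaries, veins and lymphatics each use a known set of further genes, and tumour vessels often mix them.

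The rule also admitted some cells rich in epithelial RNA, and these were set apart before genes were compared. The sum of 10 epithelial genes (Epcam, Cdh1, keratins and claudins) was at or above 80 per 10000 UMIs in 24 DoubleTg and 55 TripleTg cells, a limit chosen after the values were seen. These epithelial-rich cells had a median of 29773.5 UMIs in DoubleTg and 42894 in TripleTg, against 7270 and 7579 in the other endothelial cells, and they held 32.7% and 55.0% of all UMIs of the cells that met the rule. The 6 endothelial genes of the rule had a median of 12.0 per 10000 UMIs in the DoubleTg and 0.796 in the TripleTg epithelial-rich cells, so most of the latter (47 of 55) had fewer than 10. In the remaining epithelial-low cells, 193 in DoubleTg and 194 in TripleTg, that median was 80.6 and 51.4, whereas it was 0 in all other kept cells of either library. The rule chose cells by these genes, so that contrast is a description and not a check of the rule. Few cells lay near the limit, with 3 and 4 cells from 60 to 80 and 1 and 3 cells from 80 to 100. With 10 or more of the rule genes' UMIs per 10000 there were 13 of the 24 DoubleTg and 8 of the 55 TripleTg epithelial-rich cells. Whether such a barcode held 1 cell or several was not tested. Genes were therefore compared in the epithelial-low cells, and for many of them the ratio in all cells is given too.

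**Figure D1:**
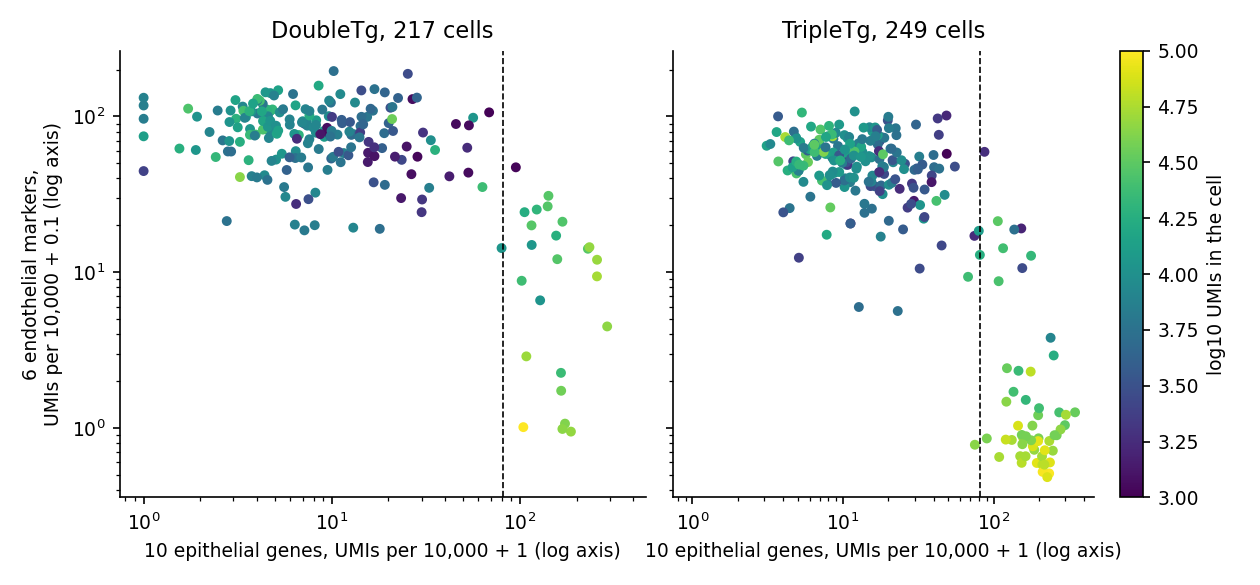
Each point is 1 cell that met the rule, in the DoubleTg (left) or TripleTg library (right), placed by its UMIs of the 10 epithelial genes (x axis) and of the 6 endothelial genes (y axis) per 10000 UMIs, on log axes, coloured by its log10 total UMIs. The dashed line is the limit of 80, and most of the 55 TripleTg cells to its right form a separate group with few endothelial UMIs and high totals.

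The cells at the edges of the rule are described next, by the same genes that chose them. Cells with exactly 3 of the 6 genes, the least the rule accepts, numbered 18 in DoubleTg and 55 in TripleTg, and their median level of the 6 genes was 21.7 and 0.931 per 10000 UMIs. Just outside, 54 DoubleTg and 347 TripleTg cells that met the limits on Ptprc and fibroblast genes had 2 of the genes, at a median of 0.737 and 0.655. Cells with 3 or more of the genes that were left out for a Ptprc UMI numbered 4 and 23, and those left out for fibroblast genes 8 and 9. All 6 genes were seen in 151 of 217 DoubleTg and 132 of 249 TripleTg cells. Of the deposited barcodes 30 occurred in both libraries, none of them on an endothelial cell.

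The epithelial-low cells had the other genes of endothelium. The summed level of 30 pan-endothelial genes that the rule did not use, such as the adhesion and junction genes Esam and Cldn5 and the transcription factors Erg and Sox17, had a median over cells of 209 per 10000 UMIs in DoubleTg and 128 in TripleTg, against 2.12 and 6.07 in the other kept cells, and none of the 30 was at 0. RNA of leukocytes, of pericytes and smooth muscle and of fibroblasts was low in DoubleTg and higher in TripleTg. Summed over the epithelial-low cells, 12 leukocyte genes came to 32.1 and 109 counts per 1000000 UMIs (CPM), 12 pericyte and smooth muscle genes to 52.3 and 174 CPM, and 10 fibroblast genes to 25.0 and 90.6 CPM, against 20406 and 12772 CPM for the pan-endothelial list. In single cells the leukocyte sum ran from 0 to 39.7 per 10000 UMIs in DoubleTg and from 0 to 32.3 in TripleTg, the pericyte and smooth muscle sum from 0 to 10.3 and from 0 to 95.8, and the fibroblast sum from 0 to 10.7 and from 0 to 17.6. Genes with no UMI were Ptprc in both libraries, Csf1r, Pdgfrb, Cspg4, Notch3, Pdgfra, Lum and Dpt in DoubleTg, and Nkg7 and Cnn1 in TripleTg. The part of such RNA in the differences below was not tested. The 10 epithelial genes summed to 824 and 1333 CPM even in the epithelial-low cells. There 12 secretory genes of prostate and seminal vesicle went the other way, at 5126 and 2252 CPM.

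Between the libraries, summed CPM were compared for genes with at least 50 CPM in either one, and a gene was called higher or lower when it differed by at least 2-fold, which is a size and not a test. In the epithelial-low cells 274 of 3456 genes (7.93%) were called higher in TripleTg and 288 (8.33%) lower, and the median log2 ratio of TripleTg over DoubleTg was -0.08. In all endothelial cells 208 of 3335 genes (6.24%) were called higher and 424 (12.7%) lower, with a median of -0.12. Every log2 ratio below is TripleTg over DoubleTg, with a 95% counting interval where one is given.

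The 6 rule genes were level or lower in TripleTg, by unequal amounts. Of the 6 genes of the rule, whose levels chose the cells and are given as a description, Cdh5, the VE-cadherin of endothelial junctions, stood at 1264 CPM in both libraries. Pecam1 was at 1385 and 937 CPM, Egfl7 at 1124 and 922 CPM, and Emcn, a sialomucin of veins and capillaries, at 1196 and 738 CPM. The VEGF receptors were further apart. Kdr, encoding VEGFR2, the main signalling receptor for VEGF-A (chr5:75932827-75978458, minus strand, GRCm38), stood at 1466 CPM in DoubleTg and 610 CPM in TripleTg (log2 ratio -1.26, -1.36 to -1.17). Flt1, encoding VEGFR1, which binds VEGF-A and PlGF and limits signalling through VEGFR2, stood at 2154 and 1017 CPM (-1.08). In all endothelial cells, where TripleTg has more epithelial RNA, the same ratios were -1.89 and -1.66 and that of Cdh5 was -0.62.

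Among the pan-endothelial genes, 6 of 28 ranked were called lower and none higher in the epithelial-low cells (median -0.61), and 19 of 27 lower in all cells (median -1.22). Over all ranked genes 8.33% and 12.7% were called lower, and over genes enriched in endothelial cells 15.7% (median -0.38) and 35.8% (median -0.77). Enriched here means at least 2-fold above the other kept cells in the library where the gene was higher. A gene can thus enter that set through 1 library only. The 6 were Sox18, Ly6c1, Tm4sf1, Rasip1, Erg and Plvap. Sox18, a transcription factor of blood and lymph vessel development, had the lowest ratio of them, with 571 CPM in DoubleTg and 131 CPM in TripleTg, 4.37-fold lower (-2.13, -2.33 to -1.93, and -2.71 in all cells). It was seen in 54.7% (46.9 to 62.2%) of 172 DoubleTg and 19.5% of 185 TripleTg cells (upper bound 25.9%) when each cell was thinned to 2000 UMIs, which removes the difference in depth. Erg, an ETS factor that holds endothelial identity, was at 299 and 142 CPM (-1.08), and Plvap, which forms the diaphragms of fenestrated vessels, at 1989 and 972 CPM (-1.03). A junction gene and a clotting gene went the other way. Cldn5, the claudin of endothelial tight junctions, was at 361 and 707 CPM (0.97) and was seen in 52 of 193 and 124 of 194 cells. Vwf, encoding von Willebrand factor, was at 217 and 525 CPM (1.28, 1.10 to 1.45). In all cells the ratios of Cldn5 and Vwf were 0.43 and 0.66.

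Other parts of the VEGF and angiopoietin system did not share one direction. Of 10 genes ranked in the epithelial-low cells 2 were called higher (Pgf and Angpt2) and 2 lower (Kdr and Flt1, both genes of the rule, so that these calls and part of the median rest on values that chose the cells), with a median of -0.44, beside 7.93% of all genes called higher and 8.33% lower. In all cells 6 of 11 were called lower (median -1.05), beside 12.7% of all genes and 35.8% of those enriched in endothelial cells. Flt4, the VEGFR3 of lymphatics and sprouts, was at 120 and 118 CPM. The co-receptor Nrp1 was at 497 and 431 CPM and Nrp2 at 450 and 298 CPM. The angiopoietin receptor Tek was at 119 and 71.3 CPM (-0.74) and its partner Tie1 at 276 and 203 CPM (-0.45). Nos3, the endothelial nitric oxide synthase, was at 196 and 103 CPM (-0.92). Vegfa itself was low in these cells, at 41.6 and 19.3 CPM, under the level needed for ranking.

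Several genes of tip cells and sprouting were higher in TripleTg, although the median of their list changed sign with the cells taken. Of 17 ranked genes of the tip cell list 6 were called higher in the epithelial-low cells (Apln, Pgf, Angpt2, Trp53i11, Esm1 and Cxcr4) and 1 lower (Plvap), with a median of 0.60, beside 7.93% and 8.33% of all genes. In all endothelial cells 5 of 16 were called higher and 3 lower, beside 6.24% and 12.7% of all genes, with a median of 0.02. From all endothelial cells without those with 2 mural cell genes the median of these 16 was -0.30, and without those with 2 lymphatic genes -0.15. The list was chosen with the direction of some of its genes known, so it is not independent evidence of that direction.

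To show 2 of these genes beside the 2 VEGF receptors that were lower, the promoters of Apln and Esm1 and of Kdr and Flt1 are printed as the RefSeq table for GRCm38.p6 gives them, from 250 bases before to 50 bases after the start of transcription, 5′ to 3′ on the strand of the gene. Capitals mark GGAAG and its reverse complement CTTCC, the core letters bound by ETS factors such as Erg. They lie at chrX:48034804-48035103 (Apln, minus strand), chr13:113209409-113209708 (Esm1, plus strand), chr5:75978406-75978705 (Kdr, minus strand) and chr5:147725962-147726261 (Flt1, minus strand).
Apln: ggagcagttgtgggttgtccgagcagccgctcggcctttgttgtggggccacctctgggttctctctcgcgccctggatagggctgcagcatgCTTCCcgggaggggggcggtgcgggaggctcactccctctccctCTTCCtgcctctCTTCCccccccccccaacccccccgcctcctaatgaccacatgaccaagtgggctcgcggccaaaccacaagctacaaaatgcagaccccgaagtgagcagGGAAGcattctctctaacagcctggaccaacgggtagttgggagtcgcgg
Esm1: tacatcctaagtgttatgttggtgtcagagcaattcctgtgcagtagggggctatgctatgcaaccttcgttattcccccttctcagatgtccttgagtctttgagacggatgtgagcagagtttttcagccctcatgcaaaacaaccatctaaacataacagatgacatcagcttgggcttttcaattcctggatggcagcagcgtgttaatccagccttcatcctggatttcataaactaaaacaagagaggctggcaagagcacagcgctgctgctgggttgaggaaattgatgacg
Kdr: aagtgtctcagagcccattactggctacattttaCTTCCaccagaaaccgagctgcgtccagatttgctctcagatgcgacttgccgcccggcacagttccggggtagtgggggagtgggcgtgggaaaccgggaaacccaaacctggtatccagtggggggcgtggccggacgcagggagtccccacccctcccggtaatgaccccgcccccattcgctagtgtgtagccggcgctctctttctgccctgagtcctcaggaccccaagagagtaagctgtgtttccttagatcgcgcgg
Flt1: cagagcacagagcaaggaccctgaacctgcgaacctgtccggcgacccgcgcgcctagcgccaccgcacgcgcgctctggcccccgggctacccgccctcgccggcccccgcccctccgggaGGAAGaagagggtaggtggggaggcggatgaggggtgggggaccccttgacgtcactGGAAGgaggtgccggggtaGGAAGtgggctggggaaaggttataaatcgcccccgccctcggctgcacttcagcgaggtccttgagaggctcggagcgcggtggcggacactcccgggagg
The motif occurs 4 times in the Apln window, 3 times in that of Flt1, 1 time in that of Kdr and not in that of Esm1. ACGTG, the core of the hypoxia response element, searched on both strands, occurs in none of the 4 windows. GGAAG in either orientation is found in 71.4% and ACGTG in 19.6% of the 32851 promoters of the table, and a match is a description of letters and not of a bound site.

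Apln encodes the peptide apelin, which tip cells release. It stood at 16.6 CPM in the DoubleTg and 355 CPM in the TripleTg epithelial-low cells, 21.4-fold higher (4.42, 3.87 to 5.02), and at 0.0276 and 0.516 CPM in all other kept cells, where a UMI was seen in 0.0519% and 0.899% of cells at median depths of 19073 and 20819 UMIs. In DoubleTg 28 UMIs lay in 7 cells and in TripleTg 718 UMIs lay in 46 cells, the 5 highest TripleTg cells holding 45.7% of them. At 2000 UMIs per cell Apln was seen in 1.16% (0.141 to 4.14%) and 14.6% (9.84 to 20.5%) of cells. The apelin receptor gene Aplnr was at 48.7 and 23.3 CPM.

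Angpt2, which destabilises vessels, stood at 88.0 CPM in DoubleTg and 465 CPM in TripleTg (2.40, 2.15 to 2.66), in 40 and 73 cells. Pgf, encoding the VEGFR1 ligand PlGF, stood at 15.5 and 121 CPM (2.97, 2.39 to 3.62). In the other kept cells both were at 1.28 to 2.02 CPM in either library. Esm1, a secreted proteoglycan of tip cells (chr13:113209659-113218098, plus strand), stood at 234 and 823 CPM (1.82, 1.66 to 1.98). Its share of cells at 2000 UMIs was 16.9% (11.6 to 23.3%) and 32.4% (25.7 to 39.7%), with intervals that cover counting error within each library only. Trp53i11 was at 138 and 503 CPM (1.87) and the chemokine receptor gene Cxcr4 at 41.0 and 121 CPM (1.56). In all endothelial cells the ratios were 3.84 for Apln, 2.34 for Pgf, 1.72 for Angpt2, 1.22 for Trp53i11, 1.10 for Esm1 and 0.69 for Cxcr4.

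Not all tip cell genes took part. Dll4, the Notch ligand of tip cells, stood at 139 and 140 CPM (0.01, -0.25 to 0.26), and Unc5b, a netrin receptor gene, at 74.9 and 82.2 CPM. Insr was at 346 and 192 CPM (-0.85). Of 9 ranked genes of the Notch pathway 1 was called higher and none lower in the epithelial-low cells (median -0.17), beside 7.93% and 8.33% of all genes, and in all endothelial cells none of 8 was called higher and 2 were called lower (median -0.61), beside 12.7% of all genes and 35.8% of those enriched in endothelial cells called lower. The one called higher was Mfng, a glycosyltransferase that modifies Notch receptors, at 50.5 and 138 CPM (1.45), under 2-fold in all endothelial cells (0.80). Notch1 was at 559 and 342 CPM (-0.71) and the target Hey1 at 116 and 153 CPM (0.40), both under 2-fold.

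Some genes of the vessel wall matrix were higher in TripleTg, and none was called lower. All 16 genes of the basement membrane and matrix list could be ranked in the epithelial-low cells, 3 were called higher (Fn1, Col18a1 and Lamc1), beside 7.93% of all genes, and the median was 0.65. The median of the same genes in the other kept cells was -0.04. With all endothelial cells taken, 2 of 15 were called higher (Fn1 at 2.18 and Col18a1 at 1.58), beside 6.24% of all genes, and the median was 0.08. That median was -0.25 without cells with 2 mural cell genes and -0.10 without cells with 2 lymphatic genes. Lamc1 was at 0.50 in all endothelial cells. Col18a1, whose collagen yields the angiogenesis inhibitor endostatin, stood at 77.3 and 414 CPM (2.42, 2.16 to 2.70), in 60 and 127 cells, while in the other cells it was lower in TripleTg (-0.80). Fn1, fibronectin, stood at 13.7 and 120 CPM (3.13), beside a ratio of 2.18 in the other cells. The type IV collagens that form the scaffold of the basement membrane did not pass 2-fold. Col4a1 was at 1677 and 2537 CPM (0.60, but -0.06 in all endothelial cells) and Col4a2 at 965 and 1612 CPM (0.74, and 0.08 in all endothelial cells). Sparc, a matrix-binding protein of growing vessels, was at 2538 and 4966 CPM (0.97), although in all endothelial cells its ratio was 0.31. Vim, the intermediate filament vimentin, was at 1581 and 4833 CPM (1.61), against 0.26 in the other cells.

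**Figure D2:**
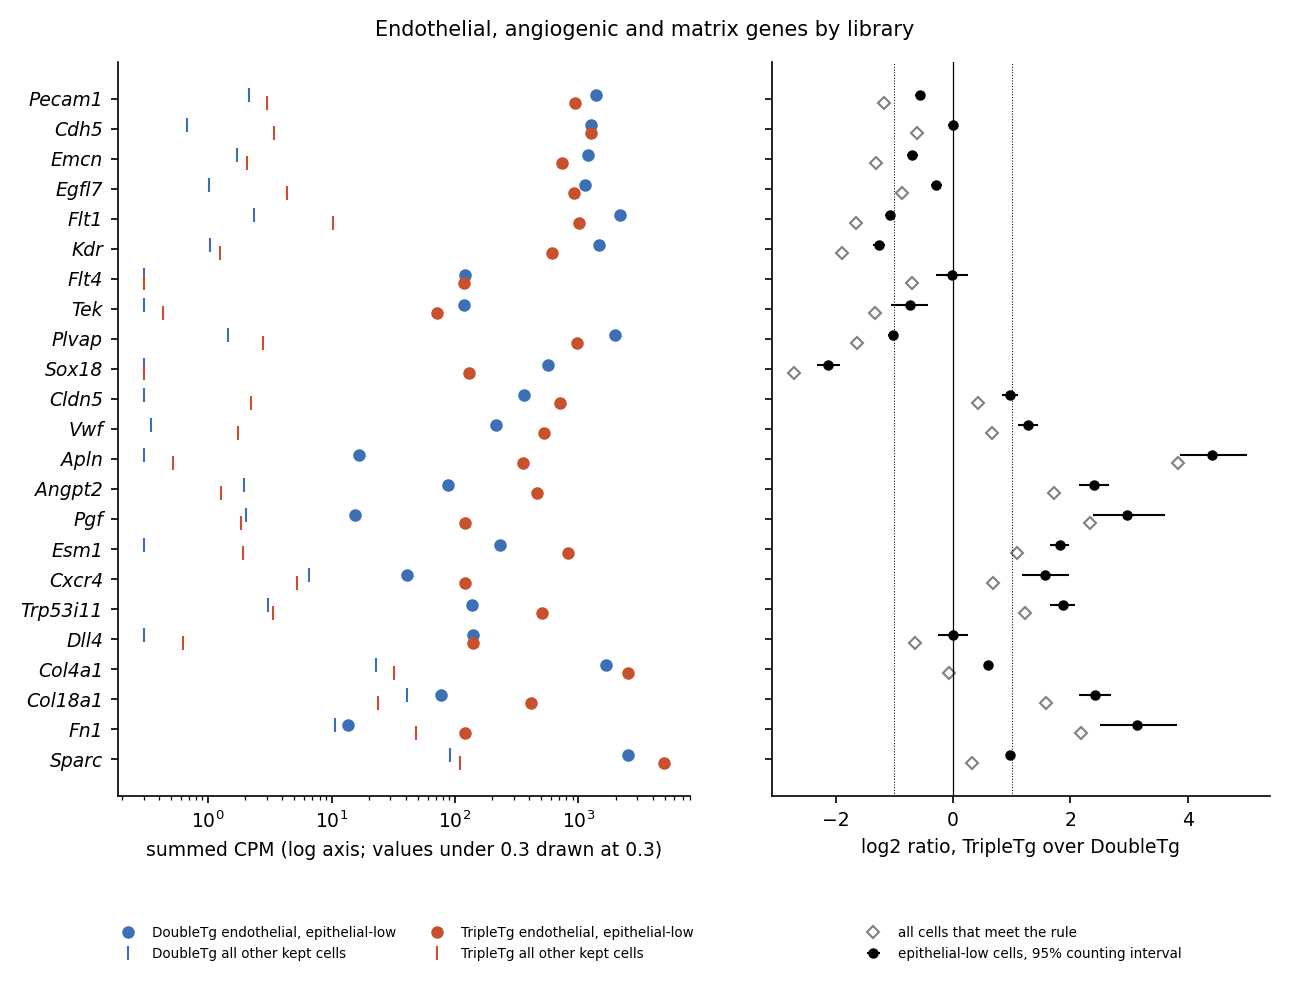
Left, summed CPM (log axis) of endothelial, angiogenic and matrix genes in the epithelial-low cells (circles) and in all other kept cells (ticks) of each library; right, log2 ratio of TripleTg over DoubleTg in epithelial-low cells (black, 95% counting interval) and in all cells that met the rule (open diamonds), with dotted lines at 2-fold. Apln, Pgf, Angpt2, Col18a1 and Fn1 lie beyond the right dotted line in both sets of cells, Kdr and Sox18 beyond the left one, and Cdh5 lies at 0 in the epithelial-low cells.

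Further genes stood out among the highest ratios of the epithelial-low cells. Ptn, encoding the growth factor pleiotrophin, was at 21.4 and 248 CPM (3.53, 3.04 to 4.06), in 8 and 53 cells. Cd276, the B7-H3 surface protein known on tumour vessels, was at 8.91 and 66.8 CPM (2.91) and Cd109, a co-receptor that dampens TGF-beta, at 14.9 and 102 CPM (2.78). Tfpi, the inhibitor of the tissue factor clotting pathway, was at 14.3 and 106 CPM (2.90), and Cdh13, T-cadherin, at 93.9 and 338 CPM (1.85). Ms4a6d was at 4.16 and 120 CPM, from 7 and 242 UMIs. Abcc9, a potassium channel subunit that is also a pericyte marker, was at 1.78 and 56.4 CPM, and since the pericyte list as a whole was at 52.3 and 174 CPM the part of pericyte RNA in it was not tested. In all endothelial cells the ratios were 2.85 for Ptn, 2.0 for both Cd276 and Cd109, 2.17 for Tfpi and 1.14 for Cdh13. Over the 11 settings that of Tfpi ran from 1.19 to 2.98 and that of Cdh13 from 0.83 to 1.94. Bmp2 was at 14.3 and 69.8 CPM (2.29), but its ratio was 0.0230 without cells with an Epcam or Cdh1 UMI, and in the other kept cells it was at 17.4 and 100.01 CPM. Acvrl1, the BMP9 receptor ALK1, was at 455 and 194 CPM (-1.23, and -1.84 in all endothelial cells).

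Each library was clustered by itself to see which vessel types it held. A cluster was given a vessel name only from its marker genes, and the genes that define a cluster are descriptions of it. The DoubleTg endothelial cells formed 5 clusters. They were a venous-like one of 30 cells led by Ackr1, Selp and Sele, a tip-like one of 119 cells with 17 of the 20 tip cell genes at 50 CPM or more but only Esm1 among its 10 leading genes, which also hold the capillary gene Rgcc, an arterial-like one of 32 cells led by Gja4, Cldn5 and Fbln5, a lymphatic-like one of 9 cells led by Ccl21a, Mmrn1 and Lyve1, and an unnamed one of 27 cells led by keratins and secretory genes. The TripleTg cells formed 6 clusters. They were a venous-like one of 53 cells, a tip-like one of 61 cells with 7 tip cell genes among its leading 10, an arterial-like one of 20 cells, a lymphatic-like one of 14 cells, an unnamed one of 56 cells led by epithelial genes, and an unnamed one of 45 cells led by interferon-induced genes and haemoglobins. No cluster could be named capillary-like. With the epithelial-low cells clustered alone, DoubleTg gave venous-like (44 cells), lymphatic-like (9) and arterial-like (29) clusters. Its remaining 111 cells formed a cluster left unnamed, since its 10 leading genes held 3 tip cell genes (Esm1, Apln and Trp53i11) beside Krt15, Krt17, Spink5 and Sprr1a, genes of epithelium. TripleTg gave a venous-like one of 35 cells, a lymphatic-like one of 14, one of 49 cells whose 10 leading genes held 3 tip cell and 3 proliferation genes, and clusters of 52 and 44 cells led by other genes. None of these had more than 1 arterial gene among its leading 10, so the TripleTg arterial-like values below rest on the clustering of all cells, from which all cluster values are taken. The tip-like clusters differ in make-up, since Apln was seen in 5.88% of the DoubleTg and 60.7% of the TripleTg tip-like cells, Angpt2 in 26.1% and 77.0%, Cd36 in 42.0% and 6.56%, and Rgcc in 75.6% and 82.0%. Differences between them below may therefore lie between unlike cells as well as between libraries, which cannot be told apart.

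Apln, Angpt2 and Esm1 were higher in the tip-like clusters than in the other clusters of their library. Apln was at 26.6 CPM in the DoubleTg and 781 CPM in the TripleTg tip-like cluster, where 28 of 28 and 689 of 722 of its UMIs lay. Angpt2 was at 127 and 929 CPM there, and Esm1 at 347 and 1734 CPM. Because these genes help define the clusters, the levels are a description. Pgf was not placed so, at 10.4 CPM in the DoubleTg tip-like and 53.0 CPM in the lymphatic-like cluster, and at 153 and 423 CPM in the same clusters of TripleTg. In the arterial-like clusters Apln had no UMI in either library.

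Vim was higher in TripleTg in each of the 4 named vessel types, with log2 ratios of 2.08 in tip-like, 1.64 in venous-like, 1.73 in arterial-like and 0.52 in lymphatic-like cells, the last under 2-fold. Col18a1 was higher in the tip-like (54.1 and 489 CPM), venous-like (62.4 and 450 CPM) and arterial-like cells (120 and 1031 CPM), but not in the lymphatic-like cells, where it had 20 and 9 UMIs. Cldn5 was close in the arterial-like cells (1896 and 2021 CPM) and apart in the tip-like (81.6 and 659 CPM) and venous-like cells (58.5 and 276 CPM). Lymphatic-like cells were 9 and 14, so their values rest on few molecules. Kdr and Cdh5, whose UMIs also chose the cells and are given as a description, stood at 1790 and 742 CPM for Kdr in the tip-like cells (-1.27), with ratios of -1.11, -0.87 and -1.17 in the venous-like, arterial-like and lymphatic-like cells. The ratios of Cdh5 in the same order of 4 were 0.14, -0.11, 0.35 and 0.73.

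**Figure D3:**
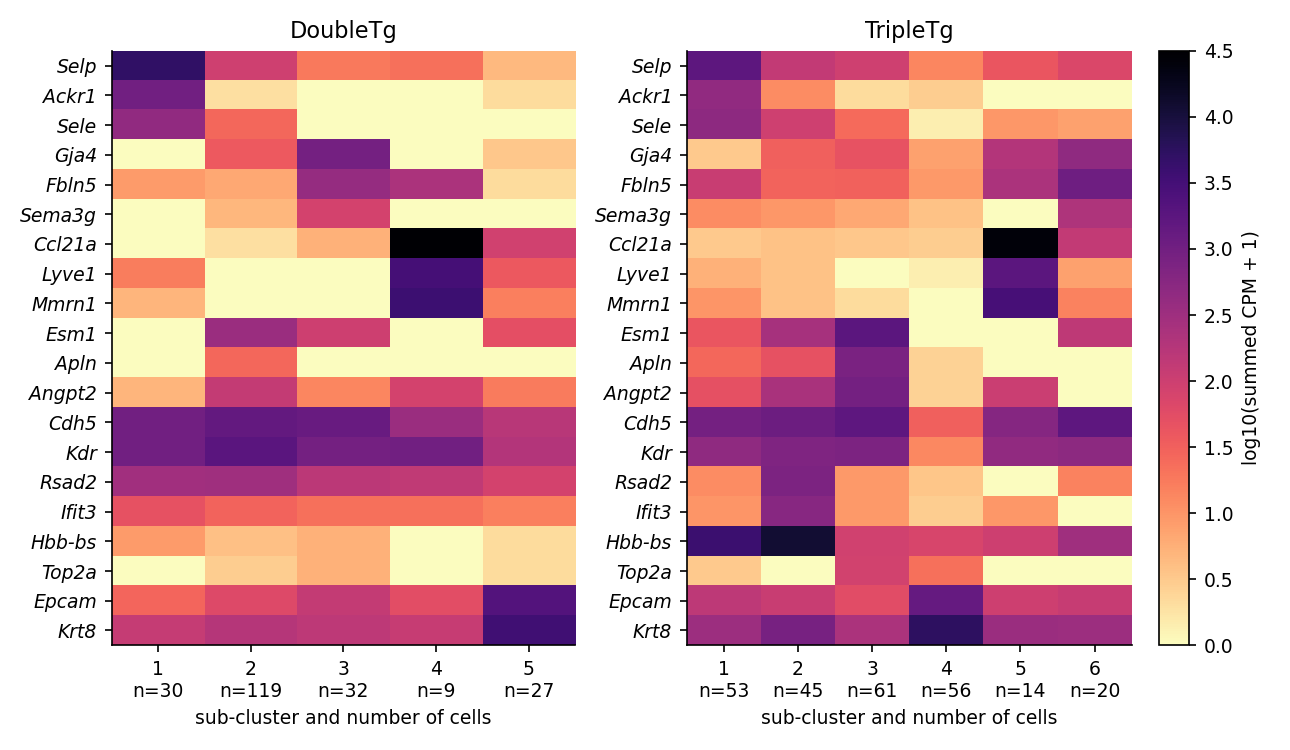
Colour gives the level, log10(summed CPM + 1), of vessel type, tip cell, interferon, haemoglobin, cycling and epithelial genes (rows) in each cluster (columns, with the number of cells) of DoubleTg (left) and TripleTg (right). Clusters 1 to 4 of DoubleTg are venous-like, tip-like, arterial-like and lymphatic-like, clusters 1, 3, 5 and 6 of TripleTg are venous-like, tip-like, lymphatic-like and arterial-like, and Apln is highest in the TripleTg tip-like cluster.

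A few arterial, capillary and venous genes were called lower in TripleTg. In the epithelial-low cells 2 of 10 ranked arterial genes were called lower (Cxcl12 and Gja4), 2 of 6 capillary genes (Cd36 and Cd300lg), 2 of 9 venous genes (Vcam1 and Il1r1, with Vwf higher) and 1 of 8 lymphatic genes (Reln), beside 8.33% of all ranked genes, so that the lymphatic count is near the background. The medians were -0.15, -0.55, -0.59 and -0.32. Over all endothelial cells 4 genes of each list were called lower, of 10, 6, 9 and 8 ranked, beside 12.7% of all genes and 35.8% of those enriched in endothelial cells. Cxcl12, the chemokine of arteries that draws CXCR4-bearing cells, stood at 701 and 210 CPM (-1.74, -1.90 to -1.58, and -2.37 in all cells). Cd36, a fatty acid transporter of capillaries, stood at 237 and 51.5 CPM (-2.20, and -2.51 in all cells), and at 2000 UMIs was seen in 28.5% (21.9 to 35.9%) and 7.03% (3.79 to 11.7%) of cells. Its ratio was -4.72 in tip-like and -4.71 in arterial-like cells but 0.89 in venous-like cells, from 14 and 46 UMIs. The DoubleTg arterial-like cluster held more capillary RNA than the TripleTg one, as given above. Scarb1, a lipoprotein receptor gene, was at 440 and 138 CPM (-1.68), and these were the 2 of 5 ranked lipid uptake genes past 2-fold, beside 8.33% of all genes and 15.7% of enriched genes called lower. Fabp4, which binds fatty acids, was at 981 and 874 CPM in the epithelial-low cells, while its ratio was -4.97 in tip-like and 1.58 in venous-like cells.

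Of 10 ranked adhesion genes for leukocytes 2 were called lower and none higher in the epithelial-low cells, with a median of -0.62 and 3 of the 10 above 0. Of all ranked genes 8.33% were called lower there, and of those enriched in endothelial cells 15.7%. In all cells 7 of the 10 were called lower (median -1.22), beside 12.7% of all and 35.8% of enriched genes. Vcam1 was at 202 and 94.6 CPM (-1.10) and Jam2 at 295 and 95.6 CPM (-1.63). Icam1 was at 411 and 263 CPM, Selp, P-selectin, at 816 and 437 CPM, and Sele, E-selectin, at 84.4 and 135 CPM (0.68). Among 12 ranked inflammatory chemokines and cytokines the calls ran both ways. Il6 was at 222 and 70.8 CPM (-1.65) and Cx3cl1, fractalkine, at 76.7 and 22.8 CPM (-1.75). Cxcl1 was at 66.0 and 168 CPM (1.35) and Cxcl2 at 36.3 and 73.8 CPM (1.02, but -0.0295 without cells with an Epcam or Cdh1 UMI), beside 124 and 247 CPM for Cxcl1 and 329 and 503 CPM for Cxcl2 in the other kept cells. Cxcl10, a chemokine induced by interferon, was at 68.3 and 195 CPM (1.51), in 17 and 26 cells, and its ratio ran from -0.54 to 1.51 over the settings tried. In the clustering of all cells that met the rule 345 of its 444 TripleTg UMIs lay in the unnamed cluster led by interferon-induced genes.

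Part of the antigen presentation and interferon genes were lower in TripleTg, and so they were in the other kept cells. Of 13 ranked MHC and antigen presentation genes 5 were called lower and none higher in the epithelial-low cells, with a median of -0.69, beside 8.33% of all genes and 15.7% of those enriched in endothelial cells called lower. In all cells 8 of 12 were called lower, with a median of -1.07, beside 12.7% and 35.8%. In the other kept cells the median of the same genes was -0.98, with 6 called lower. The median there over all genes ranked in the epithelial-low cells was -0.006. The class I gene H2-K1 stood at 1998 and 933 CPM (-1.10), the non-classical H2-Q4 at 409 and 89.1 CPM (-2.20) and the peptide transporter gene Tap1 at 105 and 41.6 CPM (-1.33). H2-Q6 was at 304 and 31.7 CPM (-3.26) and H2-Q7 at 236 and 68.3 CPM (-1.79), but H2-Q genes are close copies among which counting could split or lose reads, so single values are uncertain. B2m, the shared light chain, was at 2286 and 1503 CPM (-0.60). In the lymphatic-like cells H2-K1 was higher, at 625 and 1707 CPM.

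Of 16 ranked interferon response genes 5 were called lower and 1 higher in the epithelial-low cells, beside 8.33% of all and 15.7% of enriched genes called lower, with a median of -0.74 and of -0.95 in the other kept cells. Over all endothelial cells 8 of 12 were called lower and none higher, with a median of -1.48, beside 12.7% and 35.8% called lower. Gbp2, a guanylate-binding protein induced by interferon gamma, was at 358 and 96.1 CPM (-1.90), and was lower in tip-like (-3.38), venous-like (-3.33) and arterial-like cells (-3.52). These ratios leave out the unnamed TripleTg cluster led by interferon-induced genes, which holds 156 of the Gbp2 UMIs, at 435 CPM. Gbp4 was at 156 and 45.6 CPM (-1.78) and Irf7 at 153 and 65.9 CPM (-1.21). Rsad2, the antiviral enzyme viperin, was spread unequally. It was at 138 to 304 CPM in the 4 named DoubleTg clusters and at 0 to 13.5 CPM in the 4 named TripleTg clusters, but at 762 CPM in the unnamed TripleTg cluster of 45 cells that it leads. Ifit3 was the interferon gene called higher, at 29.7 and 71.8 CPM, and in the clustering of all cells that met the rule 202 of its 219 TripleTg UMIs lay in that same cluster.

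A large group of lower genes belonged to the amino acid response, in which the factor ATF4 drives enzymes, transporters and tRNA synthetases when amino acids are short or the endoplasmic reticulum is stressed. The list was added after the ranking had shown several of its members, so its count describes and does not test. Of 27 ranked genes 20 were called lower and 1 higher in the epithelial-low cells, with a median of -1.47, beside a background of 8.33% called lower. In all endothelial cells 16 of 24 were called lower (median -1.24), beside 12.7% of all genes and 35.8% of those enriched in endothelial cells. In the other kept cells 5 of the 27 were called lower (median -0.38). The median there over all genes ranked in the epithelial-low cells was -0.006. Asns, asparagine synthetase, stood at 188 and 41.6 CPM (-2.17, -2.54 to -1.82, and -2.22 in all endothelial cells), beside -0.68 in the other cells. Mthfd2, of mitochondrial folate metabolism, stood at 301 and 50.01 CPM (-2.59, and -2.73 in all endothelial cells), Chac1, which breaks down glutathione, at 134 and 27.7 CPM (-2.28), and Trib3, a pseudokinase that feeds back on ATF4, at 157 and 39.6 CPM (-1.99). Wars, the tryptophan tRNA synthetase, which interferon gamma also induces, was at 203 and 33.7 CPM (-2.59). Atf4 itself was at 751 and 432 CPM (-0.80), under 2-fold. Nupr1, a stress-induced nuclear protein, was the one higher, at 128 and 345 CPM (1.43), but its ratio in all endothelial cells was -0.16. By vessel type the ratio of Asns was -3.52 in tip-like, -1.13 in venous-like and -1.62 in arterial-like cells.

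**Figure D4:**
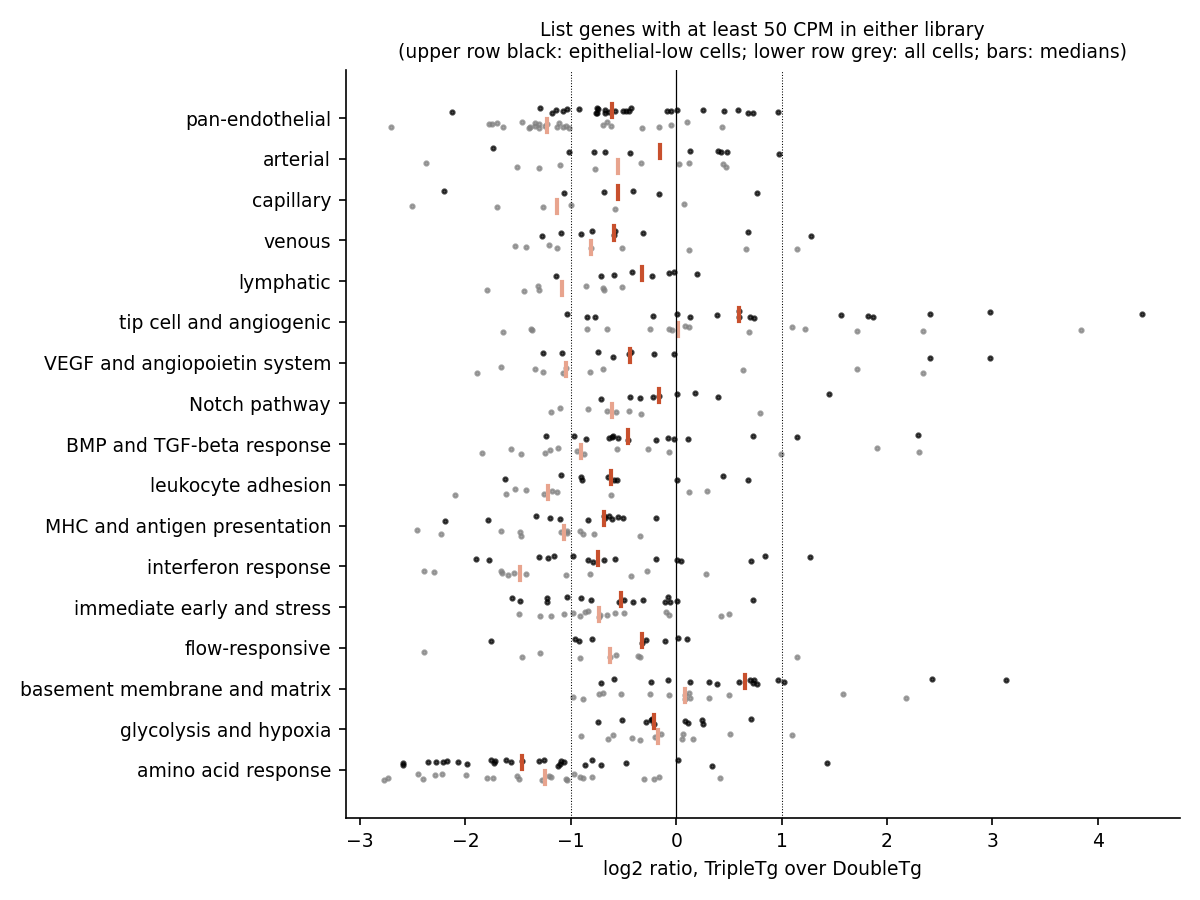
Each point is 1 gene with at least 50 CPM in either library, placed by its log2 ratio of TripleTg over DoubleTg in epithelial-low cells (black) or in all cells that met the rule (grey), for each gene list (rows), with bars at the medians. In the epithelial-low cells the medians of the tip cell list (0.60) and the basement membrane list (0.65) lie above 0, and that of the amino acid list (-1.47) lies below -1.

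Of 16 ranked immediate early and stress genes, which tissue dissociation is known to switch on, 5 were called lower and none higher in the epithelial-low cells, beside 8.33% of all genes called lower. Their median was -0.52, and -0.18 in the other kept cells. In all endothelial cells 4 of 17 were called lower, beside 12.7% of all genes and 35.8% of those enriched in endothelial cells. Above 0 were 2 of the 16, among them Jund, at 891 and 1477 CPM (0.73, and above 0 in all 11 settings tried). Egr1 was at 763 and 259 CPM (-1.56), Zfp36 at 499 and 178 CPM (-1.49) and Dusp1 at 997 and 485 CPM (-1.04). Fos was at 473 and 357 CPM and Jun at 809 and 753 CPM. Among the 9 ranked flow-responsive genes 1 was called lower, beside 8.33% of all genes and 15.7% of those enriched in endothelial cells. It was Thbd, thrombomodulin, the anticoagulant receptor of the vessel surface, at 375 and 111 CPM (-1.76, -1.98 to -1.54, and -2.40 in all cells). Klf2, the factor that laminar flow induces, was at 185 and 199 CPM, and Klf4 at 535 and 427 CPM. None of 11 ranked glycolysis and hypoxia genes was called in either direction in the epithelial-low cells, beside 7.93% of all genes higher and 8.33% lower. In all endothelial cells 1 of 12 was called higher, beside 6.24% of all genes, so these counts are near the background.

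Cyp1a1, the cytochrome P450 that the aryl hydrocarbon receptor induces, had one of the lowest ratios. It stood at 686 CPM in DoubleTg and 41.6 CPM in TripleTg, 16.5-fold lower (-4.04, -4.38 to -3.72, and -3.54 in all cells), in 79 and 25 cells. At 2000 UMIs it was seen in 30.2% (23.5 to 37.7%) and 5.41% (2.62 to 9.72%) of cells. In the other kept cells it was higher in TripleTg, at 4.83 and 38.7 CPM. It was lower in the tip-like (657 and 14.7 CPM) and venous-like cells (1166 and 90.4 CPM), and in the arterial-like cells it had 136 and 2 UMIs. Plaur, the urokinase receptor gene, was at 732 and 214 CPM (-1.78), and Plat, tissue plasminogen activator, at 104 and 244 CPM (1.23).

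**Figure D5:**
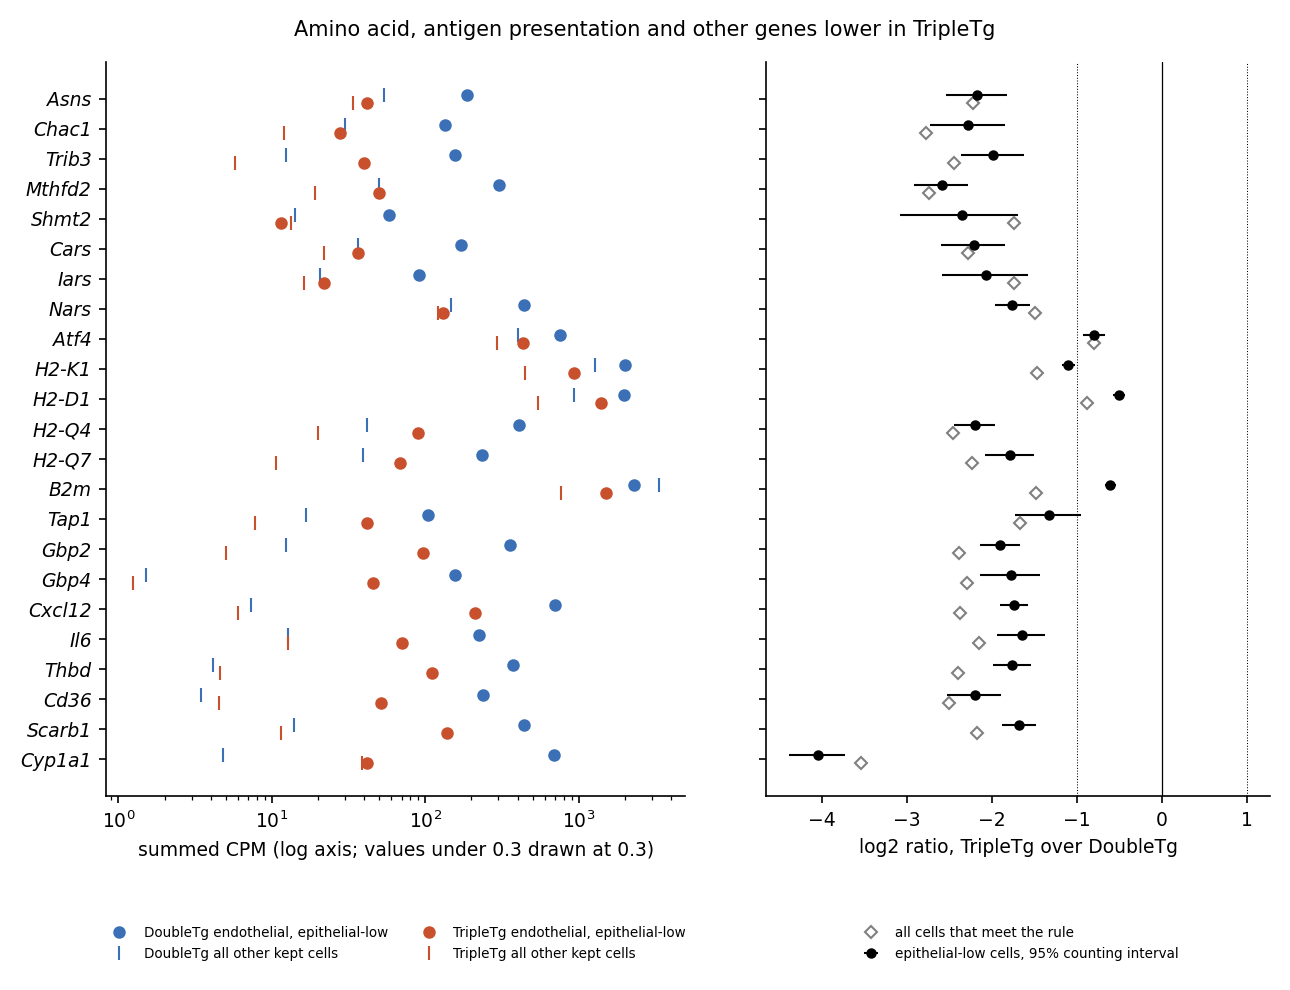
Left, summed CPM (log axis) of amino acid response, antigen presentation and further genes in the epithelial-low cells (circles) and in all other kept cells (ticks) of each library; right, their log2 ratios of TripleTg over DoubleTg in epithelial-low cells (black, 95% counting interval) and in all cells that met the rule (open diamonds). Every ratio shown is below 0, that of Cyp1a1 is the lowest of them at -4.04, and Atf4, H2-D1 and B2m stay within 2-fold in the epithelial-low cells.

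Since β-catenin is stabilised in the epithelium of TripleTg mice, the Wnt genes of the endothelial cells were also read. Reads from the 3′ end of transcripts cannot show the loss of exon 3, so Ctnnb1 does not check the genotype, and it stood at 786 and 407 CPM (-0.95). Fzd4, the Frizzled receptor of endothelium, was at 309 and 115 CPM (-1.42). Of 12 Wnt target genes only 2 reached the level for ranking, and Myc was called lower, at 94.5 and 43.1 CPM. Lef1 was at 4.16 and 41.1 CPM, from 7 UMIs in 7 cells and 83 UMIs in 48 cells, and Axin2, the feedback target, had 1 UMI in DoubleTg and 31 UMIs in 23 TripleTg cells (0.594 and 15.3 CPM). In the other kept cells Lef1 was at 0.847 and 7.08 CPM and Axin2 at 3.14 and 71.8 CPM. Lef1 thus stood above its level in the other cells of the same library, and Axin2 below. At 2000 UMIs Lef1 was seen in 1.16% (0.141 to 4.14%) and 4.86% (2.25 to 9.03%) of cells, intervals that overlap.

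Cells with proliferation genes had a larger share in TripleTg, with intervals that overlap at equal depth. With each cell thinned to 2000 UMIs, at least 2 of 15 proliferation genes were seen in 4.62% of DoubleTg cells (9 of 195, interval 2.13 to 8.58%) and in 11.3% in TripleTg (27 of 238, interval 7.61 to 16.1%). Among epithelial-low cells the shares were 5.23% (9 of 172) and 11.4% (21 of 185). Left out as shallower were 22 and 11 of all endothelial cells, and with all UMIs the shares were 42.9% and 56.2%. In the epithelial-low cells, over all UMIs, at least 5 of the 15 genes were seen in 1 of 193 cells (0.518%, 0.0131 to 2.85%) and 12 of 194 cells (6.19%, 3.24 to 10.6%). Mki67 had 1 and 48 UMIs and Top2a 3 and 76 UMIs in these cells. Birc5, survivin, had 0 and 80 UMIs, at least 22.2-fold higher with 3 UMIs over the group as the floor. Among the TripleTg clusters 44 Mki67 UMIs lay in the tip-like one and 38 in the epithelial one.

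The transgenes and their partners were low in endothelial cells. In the epithelial-low cells hMETtg was at 22.0 and 3.96 CPM, against 399 and 38.7 CPM in the other kept cells, and at 2000 UMIs it was seen in 3.49% (1.29 to 7.44%) and 1.08% (0.131 to 3.85%) of cells. hHGFtg was at 20.2 and 49.0 CPM, against 382 and 85.2 CPM in the other cells, and 1 TripleTg cell held 73 of its 99 UMIs. Without the epithelial-rich cells set apart, the ratio of hHGFtg was -2.39. The mouse receptor gene Met was at 66.6 and 43.1 CPM (-0.63), and mouse Hgf had 6 and 16 UMIs. At such levels, UMIs from free RNA of lysed cells cannot be told apart from expression.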

How the data were processed

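Prostate tissue of DoubleTg and of TripleTg mice was dissociated with collagenase and TrypLE, and 1 library of each was sequenced with the Chromium 3′ v3 chemistry. The authors deposited raw UMI counts per gene and cell. The submitters' processing notes name Cell Ranger 6.0.2 and mm10, while the header of the DoubleTg matrix gives 6.1.1; the transgenes were added to the reference. The counts of the TripleTg library already met the study's limits on genes and mitochondrial UMIs, those of DoubleTg did not, and the same limits were applied to both. No doublet caller was run.

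The endothelial cells held 2501735 UMIs in DoubleTg (median 7924 per cell) and 4490641 in TripleTg (median 9811). Counts were summed over cells and divided by the summed total to give CPM. Log2 ratios had conditional binomial 95% intervals, with sums under 3 UMIs set to 3, and shares had exact (Clopper-Pearson) ones. Both cover counting error only, and the code was tested on simulated data. Genes with at least 50 CPM in either library were ranked. scanpy 1.11.5, scipy 1.17.1 and edgeR 4.0.16 (TMM scaling only) were used, with gene positions from GENCODE mouse release 21. Promoters came from RefSeq, where 4 of 7 genes looked up had 1 entry.

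The cells, the gene lists and the limits were chosen with earlier results of these data known. Genes named were those of 29 lists, the transgenes, and the 15 highest and 15 lowest ratios over all genes and over genes enriched at least 2-fold in endothelial cells. The amino acid list, the same rankings in epithelial-low cells, and Ptn, Cd276, Cd109, Tfpi, Vim, Sparc, Cdh13 and Cyp1a1 were taken up after values were seen. Alternatives were the number of marker genes, the depth and CPM limits, thinning to 2000 UMIs, a mean over cells, TMM, and leaving out cells with epithelial, leukocyte, mural or lymphatic genes.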

Additional observations from a re-analysis of the deposited data

How the results depend on the processing

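Of 302 named genes with 50 CPM or more, 176 differed by at least 2-fold over all endothelial cells. Over all ranked genes 6.24% were called higher and 12.7% lower, but the named genes include the highest and lowest ratios, picked from these values. Of the 176, 170 had the same sign in all 11 settings, which reuse the same cells, so that count is a description. TMM scaling moved every ratio by 0.06. Requiring 4 marker genes left 254 genes called lower, and leaving out cells with an Epcam or Cdh1 UMI gave 319 called higher. With a limit of 10 CPM 746 genes were called higher and 833 lower, and with 100 CPM 116 were called higher, since more or fewer genes were ranked. Without cells holding an Epcam or Cdh1 UMI the endothelial share was 1.06% in DoubleTg and 0.81% in TripleTg. The TripleTg share was 2.09% with 4 marker genes, also 2.09% for epithelial-low cells, and 2.16% without cells with 2 leukocyte genes. Over all UMIs the shares of cells with at least 2 of 15 proliferation genes were 42.9% in DoubleTg and 56.2% in TripleTg, and with at least 5 of them 1.38% and 10.0%.

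Some signs turned. Averaged over cells, the lymphatic median was 0.0169 and Lyve1 0.0791. Without cells with an Epcam or Cdh1 UMI, Cxcl2 was at -0.0295, Fgl2 at 0.64 and Ptgs1 at -0.95. In epithelial-low cells Hk2 was at -0.0935, Ptgs1 at -0.80 and hHGFtg at 1.28. The cause was not tested. Over the genes that reached 50 CPM in all endothelial cells, a set kept fixed across settings, the median of the tip cell list ranged from -0.30 (without cells with 2 mural cell genes) to 0.64, that of the basement membrane list from -0.25 (without the same cells) to 0.63 and that of the amino acid list from -1.43 to -1.10. Over the settings Apln ranged from 3.33 to 4.71, Angpt2 from 1.08 to 2.42, Kdr from -2.01 to -1.20, and Sparc from -0.03 to 1.01. Some genes under 2-fold over all endothelial cells were above 0 in part of the 11 settings only, among them Col4a1 (6 settings, -0.35 to 0.63), Nupr1 (6, -0.30 to 1.43), Cxcl10 (8, -0.54 to 1.51) and Hey1 (5, -0.56 to 0.92). No paired analysis was possible because each genotype had 1 library, and no library could be left out in turn. Depth limits transcripts under about 50 CPM and the clusters of 9 and 14 lymphatic-like cells.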

Other observations

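RNA of the secretory epithelium was present in the endothelial cells of each library and followed the level in that library's other cells. Sbp, a ventral prostate secretory gene, was at 3054 CPM in the DoubleTg epithelial-low cells, with a UMI in 193 of 193 of them, and had no UMI in TripleTg, while the other kept cells were at 48743 and 0.191 CPM. Msmb was at 220 and 0 CPM. Svs4, a seminal vesicle protein gene, was at 2.97 and 1080 CPM, with a UMI in 193 of 194 TripleTg cells, and at 211 and 24282 CPM in the other kept cells.

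Haemoglobin genes had 9 UMIs in the DoubleTg and 10056 in the TripleTg epithelial-low cells, of which 5 cells held 96.2% and 9 cells had 10 or more. Lyz2, a macrophage gene, had 7 UMIs in DoubleTg and 113 in TripleTg, and stood at 39.4 and 436 CPM in the other kept cells. Alb and Sftpc, genes of liver and of lung, had no UMI in the DoubleTg epithelial-low cells and were at 61.9 and 57.9 CPM in TripleTg. In the other kept cells Alb was at 6.68 and 50.3 CPM and Sftpc at 0.0394 and 113 CPM. Nts, neurotensin, had 90 UMIs in 6 DoubleTg cells and 366 UMIs in 13 TripleTg cells.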
